A study of Homo sapiens with 17 samples.

Results

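Voltage-gated calcium channels have a pore-forming alpha1 subunit, which in many of them joins an intracellular beta subunit and an extracellular alpha2delta subunit. Of the genes of these subunits, 10 are described here. They were the rows of the deposited expression table named CACNA1C, CACNA1D, CACNA1G, CACNA1H, CACNA1I, CACNB1, CACNB2, CACNB3, CACNA2D1 and CACNA2D2, out of 20218 genes in all. Of these 10, 9 reached 1 FPKM (fragments scaled by transcript length and by library size) in at least 2 libraries and were tested, among 14845 tested genes. CACNA1I was below that limit and has levels only.

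The RNA came from cells differentiated from the human embryonic stem cell line H9 and sorted by 2 fluorescent reporters. GFP reported SHOX2, a transcription factor of the sinoatrial node, and the labels named no gene behind mCherry. The day 40 sorts gave 2 libraries of GFP+mCherry+, 3 of GFP-mCherry+ (GFP-Mcherry+ in the labels) and 3 of GFP-mCherry- cells, and the day 25 sorts gave 3 libraries of each population. All groups carried the same reporter line and the same cell type label, so they are 1 genetic background. The labels describe a shared start with CHIR99021, BMP4 and Activin A, followed either by XAV939 for cardiomyocytes or by cucurbitacin, retinoic acid, SU5402, XAV939, Tyrphostin AG 490 and chidamide for sinoatrial cells. They do not say which of these procedures each sorted group came from, or whether the libraries of a group were separate cultures. A p-value here thus sets a difference of group means only against the spread among these libraries, and part of that spread may be technical.

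The GFP reporter could be checked on the sorted cells, but mCherry could not, since its gene is not named. SHOX2 averaged 74.3 and 91.8 FPKM in GFP+mCherry+ cells at day 40 and day 25, against at most 2.41 FPKM in any other library. TNNT2, the cardiac troponin T of the sarcomere, averaged 2335 FPKM in GFP+mCherry+ cells and 6445 FPKM in GFP-mCherry+ cells at day 40, against 796, 157 and 177 FPKM in the GFP-mCherry- libraries. MYH6, the atrial myosin heavy chain, was listed at 0 in 1 GFP-mCherry+ library of day 40. Library sums ran from 565805 to 659878 FPKM, libraries of a group correlated at r from 0.947 to 0.984, and read depth was unknown. Libraries 13 (GFP+mCherry+, day 40, replicate 2) and 14 (GFP-mCherry+, day 40, replicate 2) stood apart with 16489 and 16597 genes above 0, against at least 17104 in the others.

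The alpha1 subunit sets the kind of current. CACNA1C (Cav1.2) and CACNA1D (Cav1.3) form L-type channels. Cav1.2 carries the main calcium current that triggers contraction in working myocardium, while Cav1.3 opens at more negative voltages and takes part in sinoatrial pacemaking. CACNA1G (Cav3.1), CACNA1H (Cav3.2) and CACNA1I (Cav3.3) form T-type channels, which open near the resting potential and are known from pacemaker cells and embryonic heart. Beta subunits bring the L-type pore to the membrane and tune its gating, and alpha2delta subunits raise its surface density.

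**Figure D1:**
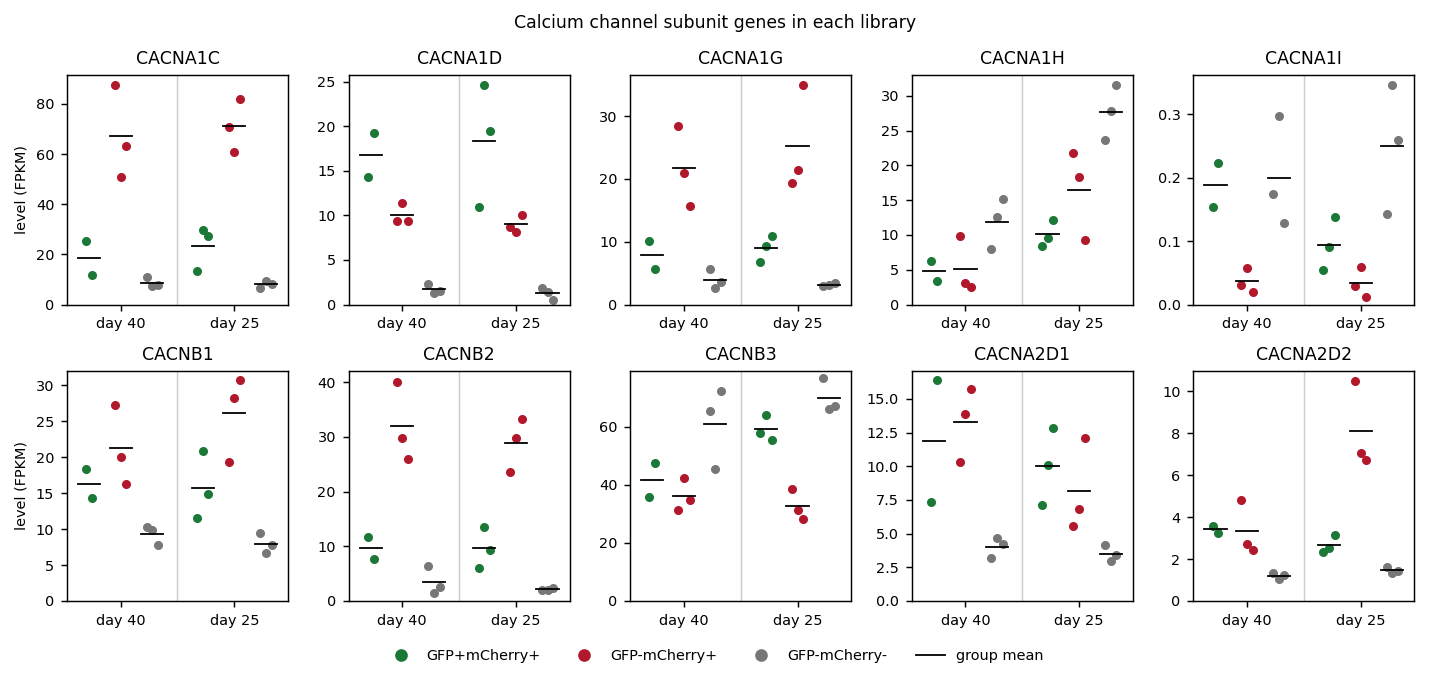
Level (FPKM, linear axes starting at 0) of the 10 genes in every library, with 1 point a library and a line at the group mean, in GFP+mCherry+ (green), GFP-mCherry+ (red) and GFP-mCherry- (grey) cells at day 40 and day 25. CACNA1C, CACNA1G and CACNB2 are highest in the red groups, CACNA1D in the green groups, and CACNA1H and CACNB3 have their highest means in the grey group of day 25.

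The first comparison made here was of the channel genes in SHOX2-reporter cells with those in the other mCherry+ cells. At both days the GFP+mCherry+ cells had less CACNA1C, CACNA1G and CACNB2 RNA than the GFP-mCherry+ cells, by 2.57-fold to 3.62-fold. CACNA1D went the other way and passed the test at day 25 but not at day 40. CACNB3 was higher and CACNA2D2 lower at day 25, and neither was called at day 40. Of the 9 tested genes, 0 were higher and 3 lower at day 40, where 25.5% of all tested genes were called (16.2% higher and 9.30% lower). At day 25, 2 were higher and 4 lower, where 20.4% of all tested genes were called (12.0% higher and 8.37% lower). The median log2 difference of the 9 genes was -0.23 at day 40 and -0.71 at day 25, against 0.08 and 0.06 over all tested genes. At day 40 the libraries of 1 gene all lay above and those of 3 all below, where 45.3% of all tested genes did not overlap, and at day 25 those of 2 lay above and 4 below, where 42.2% did not. Differences are on the log2(FPKM + 1) scale with their standard error, calls are an adjusted p under 0.05 from limma with Benjamini-Hochberg adjustment over all tested genes, and the scale understates the differences of low genes.

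**Figure D2:**
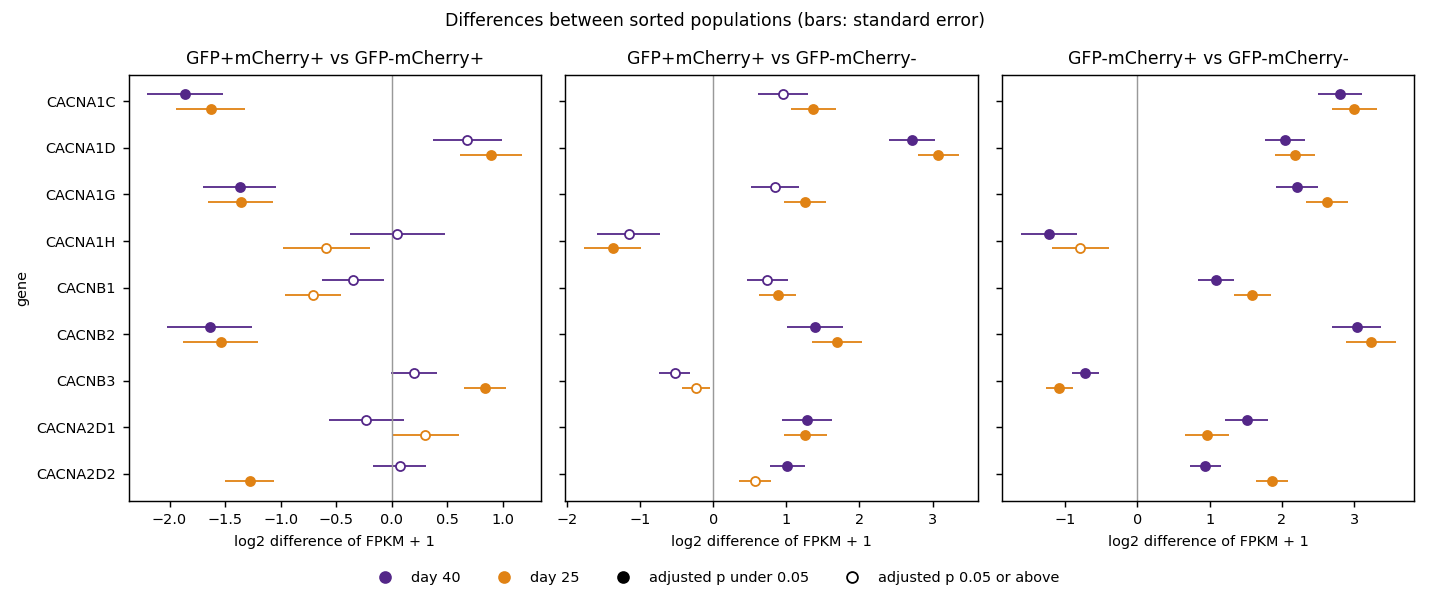
Log2 difference of FPKM + 1 (first minus second population, point with standard error) for the 9 tested genes at day 40 (purple) and day 25 (orange), with filled points for an adjusted p under 0.05. In GFP+mCherry+ against GFP-mCherry+ cells, CACNA1C, CACNA1G and CACNB2 lie between -1.86 and -1.36 at both days while CACNA1D lies at 0.68 and 0.89.

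The L-type pair carried the largest contrast between the mCherry+ populations. CACNA1C (ENSG00000151067, chr12 2079952 to 2802108 on hg19) stood at 25.3 and 11.8 FPKM in GFP+mCherry+ cells at day 40, against 87.7, 50.7 and 63.3 FPKM in GFP-mCherry+ cells. Its day 25 levels were 13.4, 29.6 and 27.3 FPKM in GFP+mCherry+ cells, against 70.9, 60.8 and 82.0 FPKM in GFP-mCherry+ cells. At both days every GFP+mCherry+ library lay below every GFP-mCherry+ library. The log2 difference was -1.86 ± 0.34 at day 40 (adjusted p 0.00144) and -1.63 ± 0.31 at day 25 (adjusted p 0.00238). TNNT2 differed by -1.46 ± 0.52 and -1.65 ± 0.46 in the same comparisons (adjusted p 0.0496 and 0.0208). In folds on this scale TNNT2 was 2.75-fold and 3.14-fold lower, and CACNA1C 3.62-fold and 3.10-fold lower.

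CACNA1D (ENSG00000157388, chr3 53528683 to 53847760 on hg19) stood at 14.3 and 19.3 FPKM in GFP+mCherry+ cells at day 40, against 9.37, 11.4 and 9.35 FPKM in GFP-mCherry+ cells. At day 25 its levels were 11.0, 24.6 and 19.5 FPKM in GFP+mCherry+ cells, against 8.68, 8.18 and 10.1 FPKM in GFP-mCherry+ cells. The groups did not overlap at either day, with GFP+mCherry+ cells above. The log2 difference was 0.89 ± 0.28 at day 25 (adjusted p 0.0351) and 0.68 ± 0.31 at day 40 (adjusted p 0.123), where only 2 GFP+mCherry+ libraries entered. The day 25 call was lost without GFP+mCherry+ replicate 2 or 3, or without any 1 of the 3 GFP-mCherry+ libraries, with log2 differences from 0.65 to 0.97 and adjusted p from 0.0629 to 0.147. It was also lost with a pseudocount of 0.1 (0.95, adjusted p 0.0894), without the filter on low genes (adjusted p 0.0549) and with only the compared groups in the fit (adjusted p 0.0553).

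The opposite directions changed the make-up of the L-type pool. CACNA1D made up 36.1% and 62.0% of the summed CACNA1C and CACNA1D FPKM in GFP+mCherry+ cells at day 40, against 9.66%, 18.4% and 12.9% in GFP-mCherry+ cells. At day 25 the share was 45.0%, 45.4% and 41.7% in GFP+mCherry+ cells, against 10.9%, 11.9% and 10.9% in GFP-mCherry+ cells. The lowest GFP+mCherry+ share was thus above the highest share in GFP-mCherry+ cells at each day, and also above the highest share in GFP-mCherry- cells of the same day, 17.5% at day 40 and 21.7% at day 25. Since both genes were chosen with earlier results known, the shares are given as a description without a test. The summed L-type level was nevertheless lower, at 39.6 and 31.2 FPKM in GFP+mCherry+ cells against 97.0, 62.1 and 72.7 FPKM in GFP-mCherry+ cells at day 40.

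**Figure D3:**
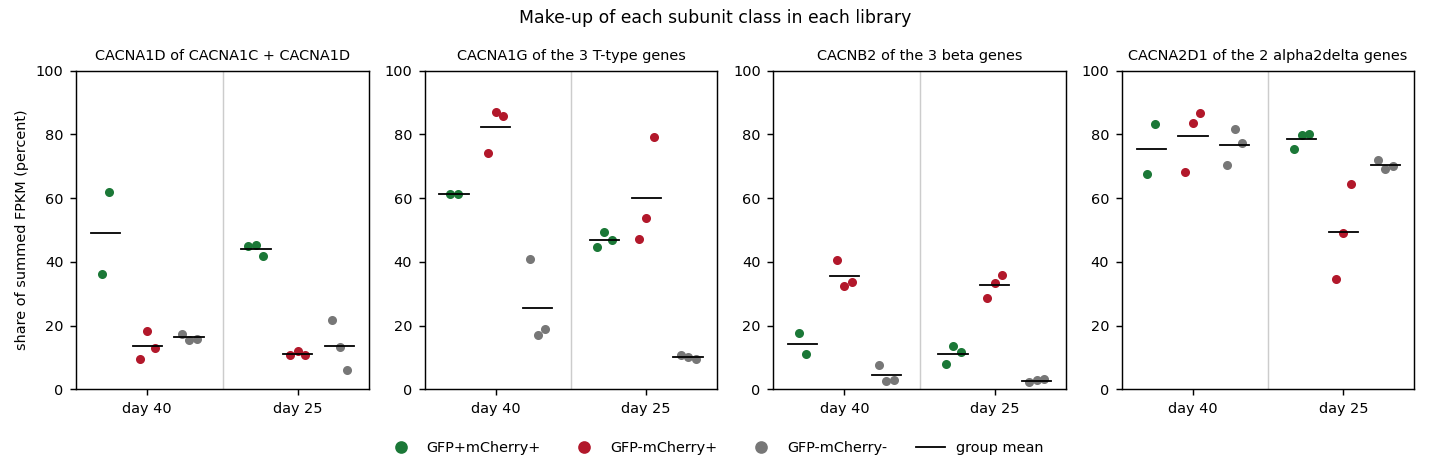
Share of each class's summed FPKM (percent of the class, axes from 0) taken by 1 gene in every library, with 1 point a library and a line at the group mean, in GFP+mCherry+ (green), GFP-mCherry+ (red) and GFP-mCherry- (grey) cells. CACNA1D takes 36.1% to 62.0% of the L-type pair in the green groups and at most 21.7% elsewhere, while the CACNB2 share is highest in the red groups.

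Promoters of the L-type pair, at 1 start site each, are shown because these genes moved in opposite directions between the mCherry+ populations. They are 250 bases before to 50 after the start site, from RefSeq on GRCh38.p14, written 5′ to 3′ on the plus strand (CACNA1C, chr12:2052737-2053036; CACNA1D, chr3:53494361-53494660), and capitals mark GC boxes, GGGCGG, which may overlap.
CACNA1C: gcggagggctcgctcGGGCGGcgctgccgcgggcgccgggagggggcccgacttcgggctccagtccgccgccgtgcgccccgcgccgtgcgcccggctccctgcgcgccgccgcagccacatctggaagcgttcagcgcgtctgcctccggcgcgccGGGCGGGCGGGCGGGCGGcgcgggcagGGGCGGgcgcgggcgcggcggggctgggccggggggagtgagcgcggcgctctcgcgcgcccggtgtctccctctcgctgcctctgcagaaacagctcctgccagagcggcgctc
CACNA1D: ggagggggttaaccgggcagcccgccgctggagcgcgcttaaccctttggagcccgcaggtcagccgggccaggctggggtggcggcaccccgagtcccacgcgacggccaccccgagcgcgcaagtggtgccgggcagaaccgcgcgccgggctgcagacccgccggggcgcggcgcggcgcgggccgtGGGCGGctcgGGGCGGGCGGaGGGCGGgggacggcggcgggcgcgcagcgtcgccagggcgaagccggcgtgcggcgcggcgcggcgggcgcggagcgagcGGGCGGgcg
Both are rich in G and C, 82.3% for CACNA1C and 83.0% for CACNA1D, against a median of 58.7% over 35116 promoters of this length. CACNA1C holds 6 GC boxes and CACNA1D 5, and 45.0% of all promoters hold at least 1, searched on both strands. Neither holds TATAAA (in 11.5% of all promoters), the homeodomain core TAAT (50.2%) or the GATA motif AGATAA (10.3%), and each holds 1 E box, CANNTG (in 68.7% of all promoters). On these letters the pair differs little at the start sites shown, and a match or its lack says nothing about which factor binds. Other start sites of the pair were not examined, and which start site these cells used was not tested. Of the 10 genes 8 had promoters in the table, with 14 entries, and CACNA1G and CACNA1H had none.

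Among the T-type genes, CACNA1G was lower in the GFP+mCherry+ cells and CACNA1H was not called. CACNA1G (ENSG00000006283, chr17 48638429 to 48704835 on hg19) stood at 10.1 and 5.64 FPKM in GFP+mCherry+ cells at day 40, against 28.5, 21.0 and 15.7 FPKM in GFP-mCherry+ cells. The day 25 levels were 6.84, 9.40 and 10.9 FPKM in GFP+mCherry+ cells, against 19.4, 21.4 and 35.0 FPKM in GFP-mCherry+ cells. No library of the populations overlapped, with GFP+mCherry+ cells below. The log2 difference was -1.37 ± 0.33 at day 40 (adjusted p 0.00682) and -1.36 ± 0.29 at day 25 (adjusted p 0.00506). Without library 13 the day 40 difference was -0.99 (adjusted p 0.139), no longer a call, and with only the compared groups in the fit it was not called either (adjusted p 0.0582).

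CACNA1H had 6.22 and 3.36 FPKM in GFP+mCherry+ cells at day 40, against 9.82, 3.10 and 2.57 FPKM in GFP-mCherry+ cells. At day 25 it had 8.45, 9.57 and 12.2 FPKM in GFP+mCherry+ cells, against 21.8, 18.3 and 9.23 FPKM in GFP-mCherry+ cells. The populations overlapped at both days, and the log2 differences of 0.05 ± 0.43 and -0.59 ± 0.39 were not called (adjusted p 0.942 and 0.302). The day 40 value was -0.02 with median-of-ratios scaling and -0.20 after quantile normalization, so it had no stable sign. CACNA1I reached at most 0.346 FPKM in any library, in GFP-mCherry- cells of day 25. CACNA1G made up 61.3% ± 0.115 of T-type FPKM in GFP+mCherry+ cells at day 40 (SD, n = 2), against 82.4% ± 6.98 in GFP-mCherry+ cells and 25.6% ± 13.2 in GFP-mCherry- cells (SD, n = 3 each). At day 25 it made up 44.6%, 49.3% and 46.7% in GFP+mCherry+ cells, against 47.1%, 53.7% and 79.1% in GFP-mCherry+ cells and 10.9%, 10.1% and 9.66% in GFP-mCherry- cells. CACNA1G was thus above CACNA1H in every mCherry+ library of day 40, and below it in every GFP+mCherry+ library of day 25 and every GFP-mCherry- library of both days.

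Of the beta subunits, CACNB2, the main beta subunit of heart muscle, was lower in the GFP+mCherry+ cells at both days. CACNB2 (ENSG00000165995, chr10 18429606 to 18830798 on hg19) stood at 11.6 and 7.65 FPKM in GFP+mCherry+ cells at day 40, against 40.1, 29.8 and 25.9 FPKM in GFP-mCherry+ cells. At day 25 it stood at 6.06, 13.5 and 9.28 FPKM in GFP+mCherry+ cells, against 23.5, 29.7 and 33.2 FPKM in GFP-mCherry+ cells. The libraries did not overlap. The log2 difference was -1.64 ± 0.38 at day 40 (adjusted p 0.00615) and -1.54 ± 0.34 at day 25 (adjusted p 0.00632). Without library 13 the day 40 difference was -1.36 (adjusted p 0.102), no longer a call.

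CACNB3, a beta subunit of brain and smooth muscle channels, was the most abundant of the 10 genes in GFP+mCherry+ and in GFP-mCherry- cells at both days. It averaged 61.0 and 70.0 FPKM in GFP-mCherry- cells at day 40 and day 25, against 41.7 and 59.1 FPKM in GFP+mCherry+ cells. It stood at 57.7, 64.2 and 55.4 FPKM in GFP+mCherry+ cells at day 25, against 38.7, 31.3 and 28.3 FPKM in GFP-mCherry+ cells, without overlap. The log2 difference was 0.84 ± 0.19 (adjusted p 0.00704). At day 40 it stood at 35.8 and 47.5 FPKM in GFP+mCherry+ cells, against 31.5, 42.3 and 34.7 FPKM in GFP-mCherry+ cells, which overlapped (0.20 ± 0.21, adjusted p 0.535).

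CACNB1, the beta subunit first known from skeletal muscle, was not called at either day. It had 18.3 and 14.3 FPKM in GFP+mCherry+ cells at day 40, against 27.3, 20.1 and 16.3 FPKM in GFP-mCherry+ cells (-0.35 ± 0.28, adjusted p 0.383). Its levels at day 25 were 11.5, 20.9 and 14.9 FPKM in GFP+mCherry+ cells, against 19.3, 28.3 and 30.8 FPKM in GFP-mCherry+ cells (-0.71 ± 0.25, adjusted p 0.0545). The populations overlapped at both days, and the day 25 difference was called with median-of-ratios scaling (-0.78, adjusted p 0.036) and after quantile normalization (-0.74, adjusted p 0.0402). The summed level of the 3 beta genes was 67.5 ± 2.64 FPKM in GFP+mCherry+ cells at day 40 (SD, n = 2), against 89.4 ± 11.3 FPKM in GFP-mCherry+ cells (SD, n = 3). Within that sum the CACNB2 share was 17.7% and 11.0% in GFP+mCherry+ cells, against 40.6%, 32.3% and 33.7% in GFP-mCherry+ cells, and the CACNB3 share was 54.5% and 68.4% against 31.8%, 45.9% and 45.1%.

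The alpha2delta genes did not share a direction. CACNA2D2, an alpha2delta gene best known from the brain, stood at 2.34, 2.55 and 3.16 FPKM in GFP+mCherry+ cells at day 25, against 10.5, 7.06 and 6.72 FPKM in GFP-mCherry+ cells, without overlap. Its log2 difference was -1.28 ± 0.22 (adjusted p 0.00136). At day 40 it stood at 3.56 and 3.26 FPKM in GFP+mCherry+ cells, against 4.81, 2.72 and 2.42 FPKM in GFP-mCherry+ cells, which overlapped (0.07 ± 0.24, adjusted p 0.862, and -0.23 after quantile normalization). CACNA2D1, the main alpha2delta subunit of heart, was not called at either day. It had 7.38 and 16.4 FPKM in GFP+mCherry+ cells at day 40, against 10.3, 13.9 and 15.7 FPKM in GFP-mCherry+ cells (-0.23 ± 0.34, adjusted p 0.66). At day 25 it had 7.13, 10.1 and 12.8 FPKM in GFP+mCherry+ cells, against 5.55, 6.81 and 12.1 FPKM in GFP-mCherry+ cells (0.30 ± 0.30, adjusted p 0.53). CACNA2D1 made up 75.4% ± 11.3 of the pair in GFP+mCherry+ cells at day 40, against 79.5% ± 9.87 in GFP-mCherry+ cells, and 78.4% ± 2.73 against 49.4% ± 14.8 at day 25 (SD, n = 2 and 3 at day 40, 3 each at day 25).

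Markers of muscle and of other cells were compared between the same populations. The summed level of 11 cardiomyocyte markers was 6822 to 11378 FPKM in GFP+mCherry+ cells at day 40, against 19052 to 32434 FPKM in GFP-mCherry+ cells, and 8 of the 11 were called lower. At day 25 it was 6051 to 14970 FPKM in GFP+mCherry+ cells, against 23988 to 31087 FPKM in GFP-mCherry+ cells, with 7 of 11 lower. The summed level of 8 fibroblast markers went the other way, with 11364 to 12371 FPKM in GFP+mCherry+ cells at day 40 against 1972 to 7318 FPKM in GFP-mCherry+ cells, and 6 of 8 higher. Neuronal markers, of cells rich in calcium channels, summed to 138 to 253 FPKM in GFP+mCherry+ cells at day 40 against 10.9 to 40.9 FPKM in GFP-mCherry+ cells, with 3 of 4 tested higher. Epithelial markers summed to 1562 to 1737 FPKM in GFP+mCherry+ cells at day 25 against 770 to 1060 FPKM in GFP-mCherry+ cells, with 5 of 7 higher, and 2 of 7 at day 40. Of 8 sinoatrial node markers 3 were higher at day 40 and 5 at day 25, and their sum was 298 to 300 FPKM in GFP+mCherry+ cells at day 40 against 104 to 118 FPKM in GFP-mCherry+ cells. These 8 include SHOX2, the gene reported by the sorted GFP, so its excess was set by the sort. SHOX2 alone had 58.5 and 90.2 FPKM in GFP+mCherry+ cells at day 40, against at most 2.41 FPKM in GFP-mCherry+ cells. Endothelial markers summed to 212 to 234 FPKM in GFP+mCherry+ cells at day 40 against 17.3 to 54.1 FPKM in GFP-mCherry+ cells, with 2 of 4 tested higher. Macrophage markers summed to 67.4 to 150 FPKM in GFP+mCherry+ cells at day 40 against 20.9 to 32.4 FPKM in GFP-mCherry+ cells, with 4 of 5 higher, and 1 of 5 at day 25. Of 7 smooth muscle markers 2 were higher and 1 lower at day 40, and 2 higher and 0 lower at day 25. Of 6 epicardial markers 2 were higher at day 40 and 3 at day 25, and 0 were lower. TBX18 is on both the epicardial and the sinoatrial node list, so these counts share a gene. In bulk RNA fewer cells of a type and less RNA per cell cannot be told apart, and the part of these markers in the channel gene results was not tested.

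Set against the GFP-mCherry- cells, which lack both reporters and much of the cardiac RNA, the channel genes that passed the test were higher in GFP+mCherry+ cells, apart from CACNA1H at day 25. This comparison shares its GFP+mCherry+ libraries with the one above. At day 40, 4 of the 9 genes were called higher and 0 lower, where 11.8% of all tested genes were called (7.03% higher and 4.75% lower). At day 25, 6 were higher and 1 lower, where 11.0% of all tested genes were called (5.77% higher and 5.27% lower). The libraries of 7 genes lay wholly above and 1 wholly below at day 40, where 41.5% of all tested genes did not overlap, and 7 above and 2 below at day 25, where 35.9% did not. CACNA1D had the largest difference. It stood at 14.3 and 19.3 FPKM in GFP+mCherry+ cells at day 40, against 2.31, 1.33 and 1.48 FPKM in GFP-mCherry- cells (2.72 ± 0.31, adjusted p 9.57e-05). At day 25 its 11.0, 24.6 and 19.5 FPKM in GFP+mCherry+ cells stood against 1.86, 1.41 and 0.519 FPKM in GFP-mCherry- cells (3.08 ± 0.28, adjusted p 1.39e-05).

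CACNA1C differed less from the GFP-mCherry- cells than CACNA1D did. It stood at 25.3 and 11.8 FPKM in GFP+mCherry+ cells at day 40, against 10.9, 7.26 and 7.84 FPKM in GFP-mCherry- cells, without overlap but not called (0.95 ± 0.34, adjusted p 0.0829). It was called without libraries 13 and 14 (1.46, adjusted p 0.0414) and without GFP+mCherry+ day 25 replicate 1 (0.95, adjusted p 0.0437), and was 0.43 (adjusted p 0.496) without GFP+mCherry+ day 40 replicate 1. At day 25 it was called, at 1.37 ± 0.31 (adjusted p 0.00935). CACNB2 was higher at both days, by 1.39 ± 0.38 at day 40 (adjusted p 0.028) and 1.69 ± 0.34 at day 25 (adjusted p 0.00508). CACNA2D1 was also higher at both days, by 1.28 ± 0.34 (adjusted p 0.0228) and 1.26 ± 0.30 (adjusted p 0.0145). CACNA2D2 was called at day 40 alone (1.01 ± 0.24, adjusted p 0.0141), with 0.57 ± 0.22 at day 25 (adjusted p 0.106), and whether these differ was not tested.

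CACNA1H and CACNB3 had negative differences in GFP+mCherry+ against GFP-mCherry- cells. CACNA1H stood at 8.45, 9.57 and 12.2 FPKM in GFP+mCherry+ cells at day 25, against 23.6, 27.8 and 31.6 FPKM in GFP-mCherry- cells (-1.38 ± 0.39, adjusted p 0.0316), and was not called at day 40 (-1.16 ± 0.43, adjusted p 0.0896). CACNA1G was higher at day 25 (1.25 ± 0.29, adjusted p 0.0123), as was CACNB1 (0.88 ± 0.25, adjusted p 0.0319), and neither was called at day 40 (adjusted p 0.105 and 0.092). CACNB3 was not called at either day (-0.53 ± 0.21 at day 40 and -0.24 ± 0.19 at day 25, adjusted p 0.12 and 0.466), although its day 25 libraries did not overlap. In the same comparison 5 of 11 cardiomyocyte markers were higher at day 40 and 9 at day 25, and 6 and 5 of 8 sinoatrial node markers. The sinoatrial list again includes SHOX2, whose excess was set by the sort. Of the epithelial markers 2 of 7 were lower at day 40 and 1 at day 25, and 5 of 5 macrophage markers were higher at day 40. The part of these markers in the channel gene results was not tested.

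Several of these calls were lost when 1 library was left out, which also leaves fewer libraries to test. At day 25 CACNA1H was not called without any 1 of the 6 libraries compared, with differences from -1.51 to -1.27 (adjusted p from 0.0566 to 0.107). Also at day 25, CACNA1G was not called without GFP+mCherry+ replicate 3 (1.12, adjusted p 0.0608). CACNA2D1 was not called without that library (adjusted p 0.0741) or without GFP-mCherry- replicate 2 or 3 (adjusted p 0.0575 and 0.0511). CACNB1 was not called without GFP+mCherry+ replicate 2 or 3 (adjusted p 0.14 and 0.0804) or GFP-mCherry- replicate 2 or 3 (adjusted p 0.118 and 0.0909). At day 40 CACNA2D1 was not called without library 13 (0.76, adjusted p 0.352) or without GFP-mCherry- replicate 1 or 3 (adjusted p 0.0518 and 0.0565). CACNA2D2 was not called without GFP+mCherry+ replicate 1 or 2, with differences of 0.96 and 1.06 (adjusted p 0.0549 and 0.0772). CACNB2 was not called without GFP+mCherry+ replicate 1 or 2 (adjusted p 0.14 and 0.0768) or GFP-mCherry- replicate 2 or 3 (adjusted p 0.0984 and 0.0898). CACNA1D kept its call at both days whichever library was left out.

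The GFP-mCherry+ cells were also set against the GFP-mCherry- cells. At day 40, 7 of the 9 genes were higher and 2 lower, where 31.9% of all tested genes were called (13.3% higher and 18.5% lower). At day 25, 7 were higher and 1 lower, where 28.5% were called (12.1% higher and 16.4% lower). The libraries of 7 genes lay wholly above and 1 wholly below at day 40, where 40.1% of all tested genes did not overlap, and 7 above and 2 below at day 25, where 49.7% did not. CACNA1C had the largest level, 67.2 ± 18.8 FPKM in GFP-mCherry+ cells at day 40 against 8.66 ± 1.95 FPKM in GFP-mCherry- cells (SD, n = 3 each), a log2 difference of 2.80 ± 0.31 (adjusted p 1.2e-05). CACNB2 had the largest difference at both days, 3.03 ± 0.34 at day 40 (adjusted p 1.56e-05) and 3.23 ± 0.34 at day 25 (adjusted p 7.1e-06). CACNA1G was higher by 2.21 ± 0.29 and 2.62 ± 0.29 (adjusted p 5.59e-05 and 1.11e-05), and CACNA1D by 2.04 ± 0.28 and 2.18 ± 0.28 (adjusted p 7.38e-05 and 3.71e-05). Of the cardiomyocyte markers 10 of 11 were higher at day 40 and 11 at day 25. Fibroblast markers were lower in 7 of 8 at day 40 and 6 at day 25, epicardial in 5 of 6 and 6, and epithelial in 7 of 7 at both days, and the part of these markers was not tested.

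Among these differences CACNB3 ran the other way. It stood at 31.5, 42.3 and 34.7 FPKM in GFP-mCherry+ cells at day 40, against 65.5, 45.3 and 72.4 FPKM in GFP-mCherry- cells (-0.72 ± 0.19, adjusted p 0.00909). At day 25 its difference was -1.08 ± 0.19 (adjusted p 0.000548), and the populations overlapped at neither day. CACNA1H was lower at day 40 (-1.22 ± 0.39, adjusted p 0.0242) although 1 GFP-mCherry+ library overlapped the GFP-mCherry- cells. That call was lost without GFP-mCherry+ replicate 2 or 3 (adjusted p 0.0869 and 0.113) or GFP-mCherry- replicate 2 or 3 (adjusted p 0.0745 and 0.0926). At day 25 CACNA1H was not called (-0.79 ± 0.39, adjusted p 0.144). CACNA2D1 was higher by 1.51 ± 0.30 at day 40 (adjusted p 0.00135) and 0.96 ± 0.30 at day 25 (adjusted p 0.0253), and the day 25 call was lost without GFP-mCherry+ replicate 3 (0.67, adjusted p 0.142) or GFP-mCherry- replicate 2 or 3 (adjusted p 0.0878 and 0.0696).

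The order of the 6 group means differed between the genes. CACNA1C, CACNA1G, CACNB1 and CACNB2 had both GFP-mCherry+ groups on top, both GFP+mCherry+ groups next and both GFP-mCherry- groups last. Within each population the neighbouring groups of the 2 days overlapped for all 4 genes. At the step from GFP-mCherry+ to GFP+mCherry+ groups only CACNB1 overlapped, and at the step from GFP+mCherry+ to GFP-mCherry- groups only CACNB2 did. CACNA1D put both GFP+mCherry+ groups first, at 16.8 ± 3.55 FPKM at day 40 (SD, n = 2) and 18.4 ± 6.90 FPKM at day 25 (SD, n = 3). Its day 40 libraries there did not overlap those of GFP-mCherry+ cells at day 40, the next group down. CACNA1H and CACNB3 had their highest mean in GFP-mCherry- cells of day 25, at 27.7 ± 4.02 and 70.0 ± 5.89 FPKM (SD, n = 3 each), but GFP-mCherry+ cells of day 25 came second for CACNA1H and last for CACNB3. CACNA2D1 was highest in GFP-mCherry+ cells of day 40 and CACNA2D2 in those of day 25, at 13.3 and 8.08 FPKM on average, and only CACNA2D2 did not overlap the next group. Both had the GFP-mCherry- groups last. CACNA1I had the GFP-mCherry- groups first, at 0.250 FPKM at day 25 and 0.201 FPKM at day 40.

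The days were compared within each population, where few of all tested genes were called. Of the 9 tested genes, 0 were called between day 40 and day 25 in GFP+mCherry+ cells, where 4.01% of all tested genes were (2.18% higher and 1.83% lower), and 2 of the 9 had an unadjusted p under 0.05 in limma. In GFP-mCherry- cells 0 were called, where 3.87% of all tested genes were (1.55% higher and 2.32% lower), and 1 had an unadjusted p under 0.05. In GFP-mCherry+ cells 2 of the 9 were lower at day 40, where 4.55% of all tested genes were called (0.633% higher and 3.91% lower). Between the days the libraries of 3 genes did not overlap in GFP+mCherry+ cells (1 above and 2 below), those of 1 in GFP-mCherry+ cells and those of 2 in GFP-mCherry- cells, where 33.8%, 20.5% and 26.4% of all tested genes did not. Macrophage markers were higher at day 40 in 5 of 5 in GFP+mCherry+ and 3 of 5 in GFP-mCherry+ cells, endothelial markers were lower in 2 of 4 tested in GFP-mCherry- cells, and 0 of 11 cardiomyocyte markers were called in any population.

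Those were CACNA2D2 and CACNA1H. CACNA2D2 stood at 4.81, 2.72 and 2.42 FPKM in GFP-mCherry+ cells at day 40, against 10.5, 7.06 and 6.72 FPKM at day 25, without overlap (-1.09 ± 0.22, adjusted p 0.0128). CACNA1H stood at 9.82, 3.10 and 2.57 FPKM at day 40, against 21.8, 18.3 and 9.23 FPKM at day 25 (-1.61 ± 0.39, adjusted p 0.0268), with 1 library overlapping. Both calls were lost without GFP-mCherry+ day 40 replicate 2 or 3 or day 25 replicate 1, and that of CACNA1H also without day 25 replicate 2, with adjusted p from 0.0622 to 0.142. CACNA1H in GFP+mCherry+ cells had 6.22 and 3.36 FPKM at day 40 against 8.45, 9.57 and 12.2 FPKM at day 25 (-0.97 ± 0.43, adjusted p 0.22), and its difference in GFP-mCherry- cells was -1.18 ± 0.39 (adjusted p 0.109). Neither of these 2 differences was called, although the libraries of the days did not overlap.

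**Figure D4:**
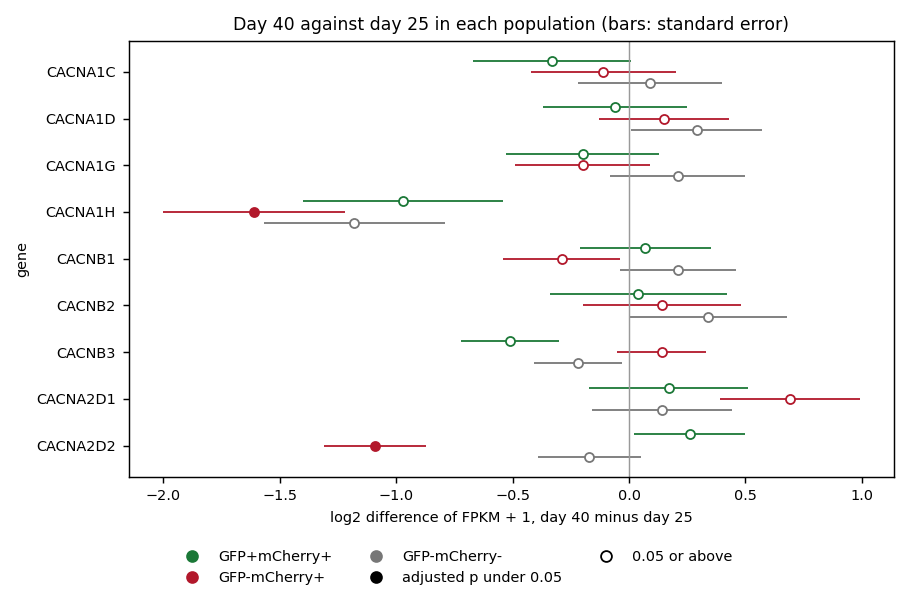
Log2 difference of FPKM + 1, day 40 minus day 25 (point with standard error), for the 9 tested genes in GFP+mCherry+ (green), GFP-mCherry+ (red) and GFP-mCherry- (grey) cells, with filled points for an adjusted p under 0.05. Only CACNA1H and CACNA2D2 in GFP-mCherry+ cells are filled, at -1.61 and -1.09, and CACNA1H lies below 0 in all 3 populations.

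Whether the difference between the mCherry+ populations itself changed with day was tested as an interaction. By limma 0 of the 9 genes were called (2 had an unadjusted p under 0.05), where 0.0135% of all tested genes were. CACNA2D2 had the smallest p, with a change of 1.35 ± 0.33 (unadjusted p 0.000767, adjusted p 0.169), and CACNB3 the other (-0.64 ± 0.29, adjusted p 0.731). For CACNA1C, CACNA1G and CACNB2 the change between the days was -0.23 ± 0.46, -0.00 ± 0.44 and -0.10 ± 0.52, with no stable sign when a library was left out.

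Of 16 other subunit genes of the family 9 were tested. CACNG4, a gamma subunit gene, reached 17.8 ± 2.40 FPKM in GFP-mCherry- cells at day 25 (SD, n = 3), and CACNG6 7.06 ± 1.09 FPKM in GFP-mCherry+ cells of that day. In GFP+mCherry+ against GFP-mCherry+ cells 4 were higher and 1 lower at day 40, and 1 higher and 1 lower at day 25. Over all tested genes 25.5% were called at day 40 (16.2% higher and 9.30% lower) and 20.4% at day 25 (12.0% higher and 8.37% lower). The day 25 count of these 9 subunit genes was near that share. CACNG6, also a gamma subunit gene, was the lower one of the 9 at both days. It stood at 0.808 and 1.25 FPKM in GFP+mCherry+ cells at day 40, against 4.76, 4.45 and 1.89 FPKM in GFP-mCherry+ cells (-1.15 ± 0.33, adjusted p 0.0186), and its day 25 difference was -2.05 ± 0.30 (adjusted p 0.000506). CACNA2D3, an alpha2delta gene, was higher at both days, by 0.78 ± 0.25 and 0.89 ± 0.22 (adjusted p 0.0317 and 0.0121), with means of 1.50 and 1.26 FPKM in GFP+mCherry+ cells. At day 40 CACNA2D4 was higher by 1.11 ± 0.20 (adjusted p 0.00141) and CACNB4 by 0.73 ± 0.21 (adjusted p 0.0174). CACNB4 averaged only 0.966 FPKM in GFP+mCherry+ cells there, against 0.173 FPKM in GFP-mCherry+ cells. CACNA2D4 had 2.11 and 2.21 FPKM in GFP+mCherry+ cells at day 40 and at most 0.850 FPKM in any other library. It thus passed the filter only through the group where it is high, and its call, among the 4 higher ones, is a description. CACNA1F, an L-type gene of the retina, had 0.613 and 3.70 FPKM in GFP+mCherry+ cells at day 40 and at most 0.469 FPKM in GFP-mCherry+ cells (1.14 ± 0.34, adjusted p 0.0228), a value that 1 library carries. CACNA1A, CACNA1B, CACNG4 and CACNG7 were not called at either day (adjusted p from 0.0808 to 0.991).

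Of 22 partners and regulators of the channels, 20 were tested. In GFP+mCherry+ against GFP-mCherry+ cells 6 were higher and 7 lower at day 40, and 7 higher and 4 lower at day 25. Over all tested genes 25.5% were called at day 40 (16.2% higher and 9.30% lower) and 20.4% at day 25 (12.0% higher and 8.37% lower). ADRB1, an adrenergic receptor gene upstream of channel phosphorylation, was higher at day 40. It had 2.42 and 2.53 FPKM in GFP+mCherry+ cells at day 40, against 0.236, 0.106 and 0.169 FPKM in GFP-mCherry+ cells (1.57 ± 0.19, adjusted p 0.000108). ADRB1 reached 1 FPKM in GFP+mCherry+ libraries only, so it passed the filter through the population where it is high. The partners named here were picked by the smallest adjusted p between the mCherry+ populations, so their calls are a description. PRKACA, a catalytic subunit of protein kinase A, was lower, at -1.09 ± 0.20 at day 40 and -1.20 ± 0.18 at day 25 (adjusted p 0.0016 and 0.000676). GEM, a small GTPase that inhibits these channels, was higher at both days (1.76 ± 0.30 and 0.90 ± 0.27, adjusted p 0.000899 and 0.0253). BIN1, which brings Cav1.2 to the membrane tubules of myocytes, was higher at both days as well (1.79 ± 0.30 and 1.46 ± 0.27, adjusted p 0.000904 and 0.00222). AHNAK, which binds the beta subunit, was higher at day 25 (1.31 ± 0.21, adjusted p 0.000846) and not called at day 40 (0.65 ± 0.23, adjusted p 0.0505). High BIN1 and AHNAK were not particular to GFP+mCherry+ cells. BIN1 averaged 16.7 and 36.4 FPKM there at day 40 and day 25, against 28.2 and 35.5 FPKM in GFP-mCherry- cells. The AHNAK means were 54.8 and 69.4 FPKM against 75.9 and 66.7 FPKM. GEM differed from these, with 21.5 and 14.4 FPKM against 8.88 and 6.36 FPKM.

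The gene whose pattern over the 17 libraries was most like each channel gene was found by Pearson's r of log2(FPKM + 1), as a description across libraries that share population and day. CACNA1C lay nearest to PDK1 (r 0.986) and BMP7 (r 0.985), and CACNA1D nearest to CAPN3 (r 0.981) and ZNF385B (r 0.964). CACNB2 lay nearest to FSD2 (r 0.992) and MYOZ2 (r 0.990), and CACNA1G nearest to MAPKAPK2 (r 0.986) and FSD2 (r 0.982). CACNA1H lay nearest to SLC9A3R2 (r 0.956) and CACNB3 to ITGB6 (r 0.947). CACNB1, CACNA2D1 and CACNA2D2 lay nearest to SLC29A1 (r 0.957), ATP2B4 (r 0.929) and NDRG4 (r 0.936).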

How the data were processed

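Libraries of sorted cells were prepared with the TruSeq RNA chemistry, per the labels' protocols. The values in the deposited table were read as FPKM because the authors used Cufflinks and the values have that form, although no unit stands in its header. Cufflinks 2.1.1, STAR 2.5.2b, bcl2fastq 2.19, cutadapt and the build hg19 are named without settings, per the submitters' processing notes. Strand use is not given in the sources used here, so reads of the channel genes and of DCP1B (opposite CACNA1C), CHDH and DCP1A (CACNA1D), TPSG1 (CACNA1H) and CYB561D2 (CACNA2D2), which GENCODE places on the opposite strand, cannot be told apart. No counting intervals were computed because fragment counts were not used here.

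Of 20368 rows, the row with the highest sum was kept for each gene name. The 17 libraries fell into 6 groups of sorted population and day, matched by the library number in each title. A mean for each group was fitted to log2(FPKM + 1) of the genes that reached 1 FPKM in 2 or more libraries, with limma 3.58.1 (trended eBayes, 11 residual degrees of freedom, two-sided) in R 4.3.3, over 10 comparisons. The procedure was tested on simulated data. The genes and lists were chosen with earlier results of these data known. Named genes were all 10 members, each other subunit that was tested, up to 6 partners with the smallest adjusted p between the mCherry+ populations, and of the 2 genes most like each tested member 1 or both; some genes these rules name are not reported here. Alternatives were another pseudocount, filter, scaling, fit, block or weights, zeros set to missing, and libraries left out.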

Additional observations from a re-analysis of the deposited data

How the results depend on the processing

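Of 39 called differences of the channel genes, 24 kept their call and all 39 their sign under all 27 settings (17 of which left out 1 library each), and 15 lost the call under at least 1. Of the 51 uncalled differences 21 changed sign under at least 1 setting, 4 of them between populations and 17 between the days or in the change between days. The scalings and zeros set to missing lost 0 calls, and fitting the compared groups alone lost 9, with fewer samples to estimate the spread. The median log2 difference over all tested genes lay at -0.105 in GFP-mCherry+ against GFP-mCherry- cells at day 25 and moved to -0.025 with median-of-ratios scaling. Where a library left out leaves 1 GFP+mCherry+ library at day 40, that library is assumed to vary like the other groups.

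With each library left out in turn, the number of the 9 genes called ranged from 1 to 3 in GFP+mCherry+ against GFP-mCherry+ cells at day 40, from 3 to 7 (day 25) and 1 to 5 (day 40) against GFP-mCherry- cells, and, between the days, from 0 to 2 in GFP-mCherry+ and 0 to 1 in GFP-mCherry- cells. Without libraries 13 and 14 together it was 1 in GFP+mCherry+ against GFP-mCherry+ and 2 in GFP+mCherry+ against GFP-mCherry- cells at day 40, and 0 between the days in GFP-mCherry+ cells. With only the compared groups it was 1 in GFP+mCherry+ against GFP-mCherry- cells at day 40, and 0 and 1 between the days in GFP-mCherry+ and GFP-mCherry- cells. Between the days it was 1 with no filter (GFP-mCherry+) and 1 with sample quality weights (GFP-mCherry-). With these weights all 9 genes were called in GFP+mCherry+ against GFP-mCherry+ cells at day 25, where 51.7% of all tested genes were then called. With no filter CACNA1I was called in GFP-mCherry+ against GFP-mCherry- cells at day 40 (-0.21) and day 25 (-0.27).

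Sign changes were confined to uncalled values. In GFP+mCherry+ against GFP-mCherry+ cells at day 40, CACNA1H was -0.02 with median-of-ratios scaling, -0.20 after quantile normalization, -0.01 with the block and -0.31 to 0.55 with a library left out. CACNA2D2 was -0.00 and -0.23 under the same scalings and -0.08 to 0.30 with a library left out, CACNB3 -0.00 to 0.39 and CACNA2D1 -0.75 to 0.30. CACNA2D1 between the days in GFP+mCherry+ cells was -0.12 with weights, -0.36 without libraries 13 and 14, and -0.36 to 0.69 with a library left out, and its change between the days -1.05 to 0.00. The change between the days was 0.11, 0.37 and 0.14 for CACNA1C, CACNA1G and CACNB2 without libraries 13 and 14, and -0.74 to 0.29, -0.37 to 0.37 and -0.37 to 0.17 with a library left out. The cause of these changes was not tested.

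Libraries with consecutive numbers did not all deviate together (r from -0.123 to 0.458 over 16 pairs), so the numbers were not taken to pair the samples, which does not show that no pairing exists. A block on these sets kept the counts of called genes at 3 (day 40) and 6 (day 25) in GFP+mCherry+ against GFP-mCherry+ cells, at 9 and 8 in GFP-mCherry+ against GFP-mCherry- cells, at 7 in GFP+mCherry+ against GFP-mCherry- cells at day 25, and gave 5 there at day 40, where CACNA1C was added (0.91, adjusted p 0.043). With the block, CACNA1D in GFP+mCherry+ against GFP-mCherry+ cells at day 25 was not called (0.89, adjusted p 0.0515) and CACNB1 was (-0.71, adjusted p 0.0396). With 2 or 3 libraries a group and unknown depth, the precision of values near 1 FPKM cannot be given.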
